A study of Homo sapiens with 3 samples.

Results

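The genes of the mitochondrial and death receptor routes to apoptosis were followed in colorectal cancer cells made resistant to irinotecan. The list holds 38 genes of the BCL2 family, the caspases, the inhibitors of apoptosis (IAP proteins) and their partners, named by symbol in 9 classes. A gene was read from the probe sets that name it alone, and from the brightest of them where there were several. This gave values for 36 of the 38 genes, among 18417 genes measured in the same way. The probe set of BCL2L2, an anti-apoptotic family member, also names its read-through transcript with PABPN1 and was not used for a single gene, and RIPK1, a kinase of the TNF receptor complex, was not analysed here.

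LoVo, an established human colorectal cancer line, was grown as 3 cultures, each measured on 1 Affymetrix Human Gene 1.0 ST array. They were the parental cells, LoVo-R8 cells cultured free of irinotecan, and LoVo-R8 cells cultured with 8 μM irinotecan, a camptothecin prodrug whose active form traps topoisomerase I on DNA. LoVo-R8 was selected from LoVo by raising the dose stepwise from 0.1 to 8 μM, and is a single selected line, so the resistant state is not replicated across lines. Whether the parental culture saw the drug before RNA was taken could not be told from the labels. The values are log2 levels after robust multichip averaging (RMA), and a difference of 1 is 2-fold. Each condition has 1 array, so the values carry no error and were not tested. Both comparisons with parental LoVo share the same parental array, and the comparison of the LoVo-R8 cultures shares its arrays with them.

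The BCL2 family sets whether the outer mitochondrial membrane is opened. Anti-apoptotic members hold effectors such as BAK1 in check, and BH3-only members, activated by DNA damage or loss of growth signals, relieve that check. Cytochrome c (CYCS) then joins APAF1 to activate caspase 9, while the death receptor route starts at the membrane from ligands such as TRAIL and activates caspases 8 and 10. IAP proteins restrain caspases, and DIABLO and HTRA2, released from mitochondria, oppose the IAP proteins.

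Differences from parental LoVo went both ways across the list, and 2 genes stood out in both LoVo-R8 cultures. The median size of the log2 differences was 0.22 without irinotecan and 0.24 with it, against 0.17 and 0.14 for all genes. TNFSF10, which encodes TRAIL, and BCL2L14, a BCL2 family gene, were at least 2-fold higher with and without irinotecan. They are 5.56% of the list, against 1.64% of all genes without irinotecan and 2.25% with it. BCL2L11, which encodes the BH3-only protein BIM, was at least 2-fold lower in LoVo-R8 without irinotecan and not in LoVo-R8 with it. Without irinotecan, 2.78% of the list and 2.78% of all genes were lower by that much. The other 33 measured genes stayed within 2-fold of parental LoVo on both arrays. A level is an average over a culture, so a change in the number of cells that make an RNA and a change in the RNA per cell cannot be told apart.

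Promoters of these genes are shown because they are the members past 2-fold. Each is the stretch of 250 bases before an annotated transcription start in RefSeq on GRCh38.p14, written along the strand of the gene. Capitals mark matches to the interferon response core GAAANNGAA, a sequence bound by IRF factors, or to the forkhead core GTAAACA, bound by FOXO factors, on either strand. The TNFSF10 window lies at chr3:172523431-172523680 on the minus strand. The BCL2L14 windows, of 2 annotated starts, lie at chr12:12070689-12070938 and chr12:12071153-12071402 on the plus strand. The BCL2L11 window lies at chr2:111120664-111120913 on the plus strand.
TNFSF10: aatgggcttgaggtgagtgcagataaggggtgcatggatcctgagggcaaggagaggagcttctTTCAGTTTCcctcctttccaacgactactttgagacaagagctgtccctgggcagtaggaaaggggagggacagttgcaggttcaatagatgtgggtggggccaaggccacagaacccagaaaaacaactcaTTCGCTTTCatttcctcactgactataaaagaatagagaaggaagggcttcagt
BCL2L14, first start: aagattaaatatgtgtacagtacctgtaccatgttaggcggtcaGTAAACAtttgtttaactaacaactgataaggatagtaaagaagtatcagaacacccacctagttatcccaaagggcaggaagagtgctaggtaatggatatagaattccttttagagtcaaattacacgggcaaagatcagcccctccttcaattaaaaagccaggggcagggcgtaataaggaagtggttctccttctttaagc
BCL2L14, second start: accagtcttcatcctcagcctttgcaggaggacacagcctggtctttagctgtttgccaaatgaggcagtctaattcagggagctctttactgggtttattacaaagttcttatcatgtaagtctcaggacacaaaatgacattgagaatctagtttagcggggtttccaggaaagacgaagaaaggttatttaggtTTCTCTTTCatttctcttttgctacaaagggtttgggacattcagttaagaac
BCL2L11: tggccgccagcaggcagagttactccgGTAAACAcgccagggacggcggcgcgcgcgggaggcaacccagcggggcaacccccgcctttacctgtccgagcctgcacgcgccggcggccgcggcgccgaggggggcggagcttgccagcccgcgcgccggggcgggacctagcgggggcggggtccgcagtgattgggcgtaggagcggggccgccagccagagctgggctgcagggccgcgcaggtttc

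The TNFSF10 window held 2 interferon response cores, which began 186 and 54 bases before the start. The BCL2L14 windows held 1 forkhead core and 1 interferon response core. The BCL2L11 window held 1 forkhead core, in a stretch with a GC content of 76.8%, against 49.6% for TNFSF10 and 40.4% and 41.2% for BCL2L14. Promoter windows were found for 30 of the 36 measured genes, and for RIPK1, 58 windows in all, with a median GC content of 64.8% against 58.0% over all 35116 windows of this length. The interferon response core was in 7 of the 58 windows (12.1%) and in 6.88% of all windows, and the forkhead core in 2 (3.45%) and in 2.98%. The 7 windows belong to 6 genes, TNFSF10, BCL2L14, BCL2A1, BIRC2, CFLAR and RIPK1, and the 2 RIPK1 windows among them overlap and hold the same site. The AP-1 core TGANTCA was in 3 of the 58 windows (5.17%), of BCL2L13, CASP8 and CFLAR, against 6.57% of all, and the E2F core TTTGGCGC was in 0 against 0.55%. No motifs overlapped in the windows printed, and a match is only a match of letters.

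In LoVo-R8 without irinotecan, 2 of 36 genes were at least 2-fold higher than in parental LoVo (5.56%, against 1.64% of all genes measured) and 1 was at least 2-fold lower (2.78%, against 2.78% of all genes). With irinotecan, 2 were higher (5.56%, against 2.25%) and 0 were lower (against 2.3%). At 1.5-fold the counts without irinotecan were 3 higher (8.33%, against 4.37%) and 4 lower (11.1%, against 8.84%), and with irinotecan 3 higher (8.33%, against 5.79%) and 1 lower (2.78%, against 7.19%). Each count rests on at most 4 genes, and a single gene is 2.78% of the list. The median log2 difference of the list was 0.00 on each LoVo-R8 array, equal to the median of all genes. It falls on genes with equal levels, 5 at 0 without irinotecan and 6 with it. Without irinotecan it was 0.077 after loess correction and 0.120 after repeated quantile normalization. The medians of all genes were then -0.015 and 0.014. In size, the median difference was 0.22 without irinotecan and 0.24 with it, against 0.17 and 0.14 for all genes.

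**Figure D1:**
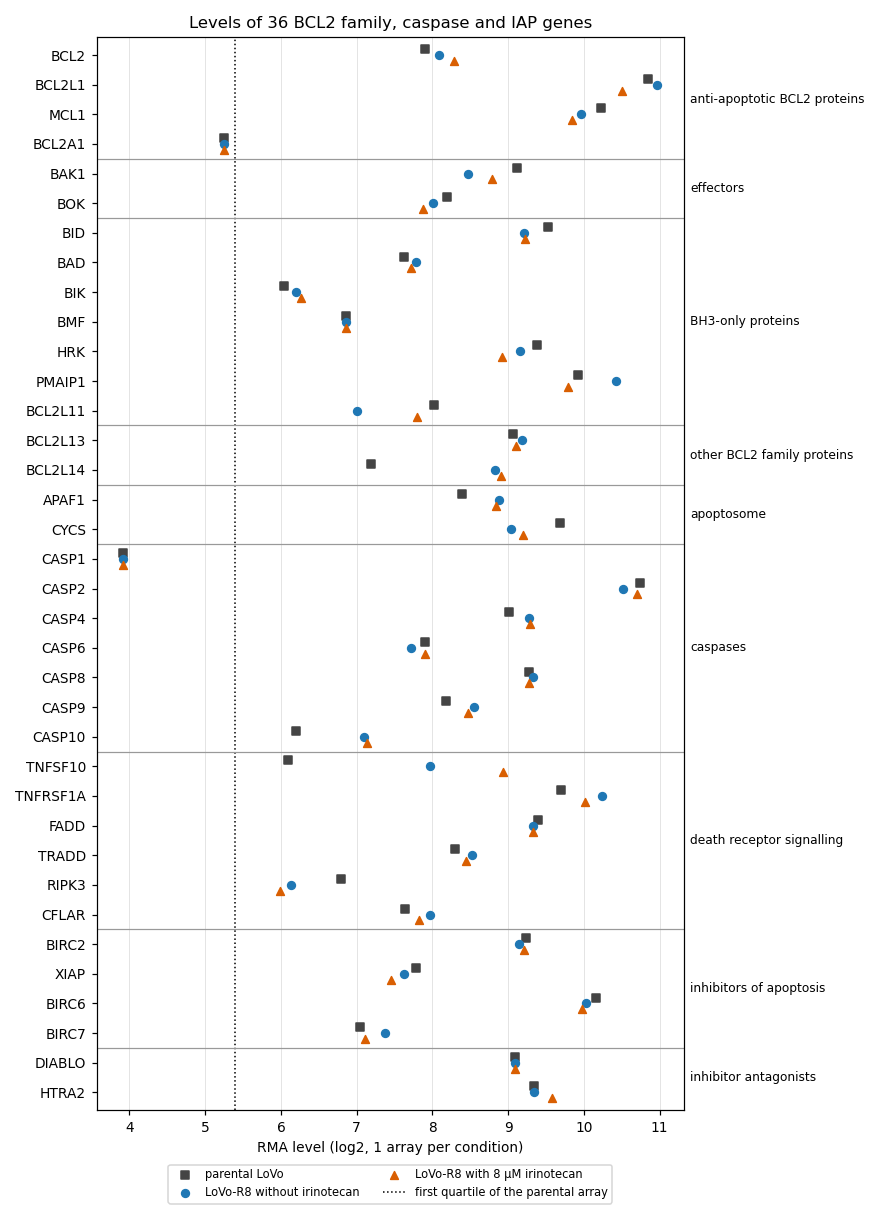
RMA log2 levels (horizontal axis) of the 36 measured genes, grouped by class, in parental LoVo (squares), LoVo-R8 without irinotecan (circles) and LoVo-R8 with 8 μM irinotecan (triangles), 1 array each. Each row is to be read on its own, since probe sets differ in response. TNFSF10 spreads over 2.84 and BCL2L14 over 1.72, while BCL2A1 and CASP1 lie left of the first quartile of the parental array (5.39).

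The anti-apoptotic genes were all within 1.5-fold of parental LoVo, as were 86.8% of all genes without irinotecan and 87.0% with it. BCL2L1, which encodes BCL-XL, had levels of 10.85 in parental LoVo, 10.97 in LoVo-R8 without irinotecan and 10.51 with it. It was thus slightly above parental without the drug and slightly below with it, at log2 differences of 0.12 and -0.35. BCL2, the founding member of the family, had differences of 0.18 and 0.38, and MCL1, a short-lived protector, -0.27 and -0.39. BCL2A1, an NF-kappaB target in blood cells, was at 5.25 on each array, below the first quartile. The shared probe set of BCL2L2 and its read-through had -0.50 and -0.45.

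Both effector genes lay below their parental levels in both LoVo-R8 cultures. BAK1, whose protein forms pores in the outer mitochondrial membrane, was measured at 9.11 in parental LoVo, 8.48 in the drug-free LoVo-R8 culture and 8.79 in the treated one. The parental array was the highest of the 3, and the differences were -0.64 and -0.32. As deposited, BAK1 thus passed 1.5-fold only without the drug. That difference was -0.57 after loess correction and -0.50 after repeated quantile normalization, inside 1.5-fold. BOK, a related effector, had -0.18 and -0.32.

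The BH3-only genes differed among themselves, and 2 of them separated the LoVo-R8 cultures. BCL2L11 had levels of 8.03 in parental LoVo, 7.00 in LoVo-R8 without irinotecan and 7.79 with it. The culture without irinotecan was the low one, at 0.492-fold of parental (log2 difference -1.02, the 489th lowest of 18417 genes), and the culture with irinotecan lay near parental (-0.23). PMAIP1, which encodes NOXA, a p53-induced antagonist of MCL1, had levels of 9.92, 10.43 and 9.80. Here the culture without irinotecan was the high one, with differences of 0.51 and -0.12. HRK had -0.23 and -0.47, BID, which caspase 8 cleaves to link the death receptor and mitochondrial routes, -0.31 and -0.30, and BAD 0.15 and 0.09. BIK had 0.15 and 0.21, and BMF, a sensor tied to the cytoskeleton, was at 6.87 on each array.

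BCL2L14 was the family member furthest from parental LoVo. Its protein carries a BH3 motif, and its part in cell death is less settled than that of the other members. Its level was 7.19 in parental LoVo, 8.83 in LoVo-R8 without irinotecan and 8.91 with it. The LoVo-R8 cultures lay close together and well above parental, at 3.12-fold and 3.30-fold, ranks 81 and 109 from the top among 18417 genes. On chromosome 12, the 10 measured genes nearest to BCL2L14 had median differences of 0.11 and 0.23, and 1 of them, DUSP16, was at least 2-fold higher without irinotecan. BCL2L13, a mitochondrial family member, had levels of 9.06, 9.18 and 9.11 in the same order, and so stayed near parental.

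**Figure D2:**
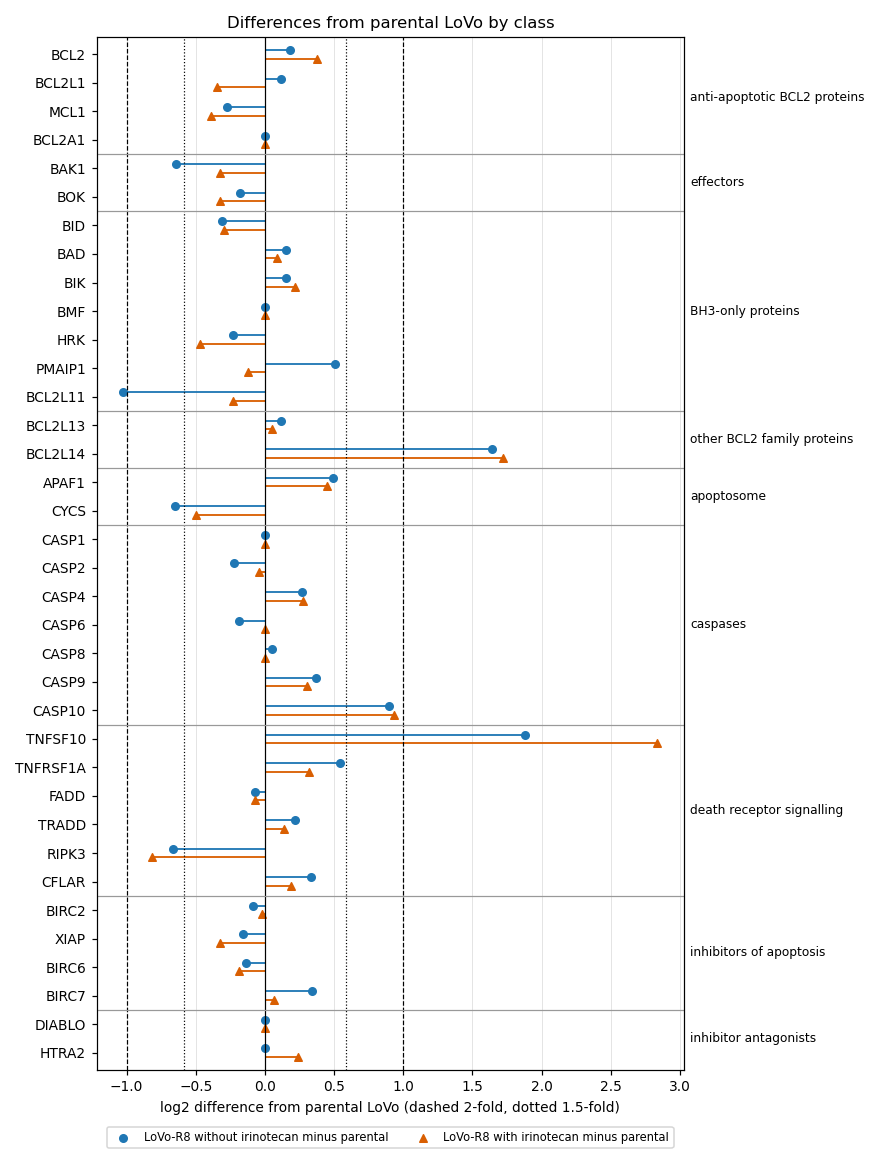
Log2 difference from parental LoVo (horizontal axis) of each measured gene in LoVo-R8 without irinotecan (circles) and with irinotecan (triangles), by class, with dashed lines at 2-fold and dotted lines at 1.5-fold. TNFSF10 (1.88 and 2.84) and BCL2L14 (1.64 and 1.72) lie past 2-fold on both arrays, and BCL2L11 (-1.02 and -0.23) on 1.

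The apoptosome genes had opposite signs. APAF1, the scaffold that binds cytochrome c, was above parental in both LoVo-R8 cultures (0.49 and 0.45). CYCS had levels of 9.68 in parental LoVo, 9.04 in LoVo-R8 without irinotecan and 9.19 with it. It was lower in both (-0.65 and -0.49), and past 1.5-fold without the drug as deposited. Without the drug its difference was -0.56 after loess correction and -0.50 after repeated quantile normalization, inside 1.5-fold. CYCS has many processed pseudogenes in the genome that may share probe sequence, so its values are uncertain.

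Among the listed caspase genes, CASP10 alone passed 1.5-fold. This initiator caspase of the death receptor route had levels of 6.20 in parental LoVo, 7.10 in LoVo-R8 without irinotecan and 7.14 with it. The LoVo-R8 cultures lay together above parental, at 1.86-fold and 1.91-fold, just under 2-fold. In parental LoVo CASP10 was dim, at percentile 37.8 of the array. CASP8, its paralog and neighbour on chromosome 2, had differences of 0.05 and 0.00, and CFLAR, which lies on the other side of CASP10 and encodes the caspase 8 regulator FLIP, 0.33 and 0.19. The 10 measured genes nearest to CASP10 included 0 past 2-fold on either array. A second CFLAR probe set, slightly dimmer, had -0.08 and -0.80, so the probe sets of CFLAR disagreed in the culture with irinotecan.

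The other caspases stayed nearer to parental. CASP9, the caspase of the apoptosome, had differences of 0.37 and 0.30, and CASP4, an inflammatory caspase, 0.27 and 0.28. CASP2, a caspase linked to DNA damage and mitotic stress, had levels of 10.74, 10.52 and 10.70, with parental LoVo first. CASP6, an executioner, had -0.19 and 0.00. CASP1, the interleukin 1 converting enzyme, was at 3.92 on each array, near the bottom of the array (percentile 8.93 in parental LoVo), so nothing can be read from its equal values.

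TNFSF10 was the member furthest from parental LoVo on both arrays. Its level was 6.09 in parental LoVo, 7.97 in LoVo-R8 without irinotecan and 8.93 with it. The order of the arrays was parental, without and then with irinotecan, at 3.68-fold and 7.14-fold of parental. These differences ranked 57 and 21 from the top of 18417 genes. The parental level was at percentile 36.0 of that array, where background can make a difference look smaller than it is. On chromosome 3, the 10 measured genes nearest to TNFSF10 had a median difference of 0.00 on both arrays, and 1 of them, TNIK, was at least 2-fold higher on both.

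The receptors and adaptors of the same route moved less. TNFRSF1A, the main TNF receptor, had levels of 9.70, 10.24 and 10.02 in parental LoVo and in LoVo-R8 without and with irinotecan. It was thus above parental in both LoVo-R8 cultures, by 0.54 and 0.32. The adaptor FADD, which recruits caspase 8, had -0.07 on both arrays, and TRADD, the adaptor of the TNF receptor, 0.22 and 0.14. RIPK3, the kinase of necroptosis, had levels of 6.79, 6.13 and 5.98 and was past 1.5-fold lower in both LoVo-R8 cultures (-0.66 and -0.81). It was dim, below the median of each array (percentiles 47.7, 36.0 and 33.9 in the same order).

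**Figure D3:**
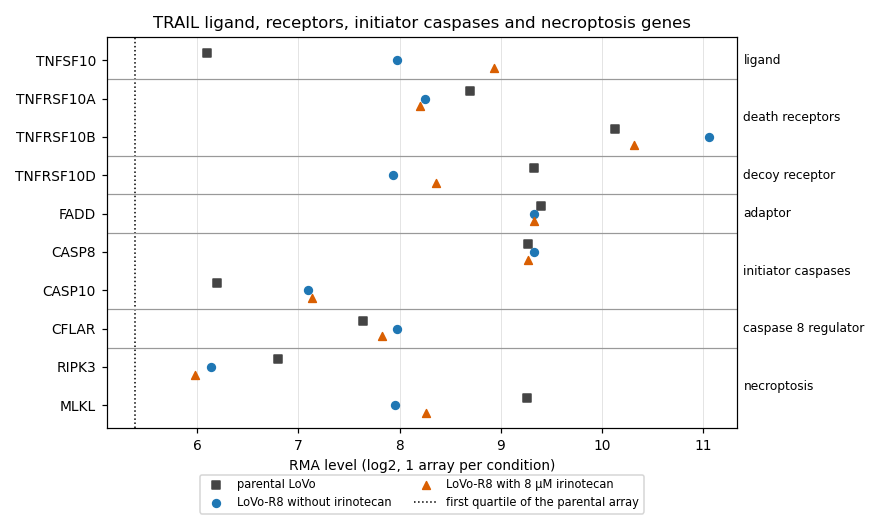
RMA log2 levels (horizontal axis) of the TRAIL ligand, its receptors, the adaptor, initiator caspases, CFLAR and 2 genes of necroptosis in parental LoVo (squares), LoVo-R8 without irinotecan (circles) and with irinotecan (triangles), 1 array each. TNFSF10, TNFRSF10B, CASP10 and CFLAR lie to the right of their parental levels on both LoVo-R8 arrays. TNFRSF10A, TNFRSF10D, RIPK3 and MLKL lie to the left of theirs, and FADD and CASP8 lie near theirs.

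The IAP genes and their antagonists all stayed within 1.5-fold of parental LoVo, as did 86.8% of all genes without irinotecan and 87.0% with it. BIRC6, a very large IAP protein that also conjugates ubiquitin, had levels of 10.17 in parental LoVo, 10.03 in LoVo-R8 without irinotecan and 9.98 with it. XIAP, which binds caspases directly, had differences of -0.16 and -0.32, BIRC2, an IAP protein of the TNF receptor complex, -0.09 and -0.02, and BIRC7, also called livin, 0.34 and 0.07. HTRA2 had levels of 9.34, 9.34 and 9.59, and DIABLO was at 9.09 on each array.

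Without and with irinotecan, the LoVo-R8 cultures were close to each other. No listed gene reached 2-fold between them (0 higher, against 0.527% of all genes, and 0 lower, against 0.114%). At 1.5-fold, TNFSF10 (0.96) and BCL2L11 (0.79) were higher with irinotecan (5.56%, against 2.87% of all genes) and PMAIP1 (-0.63) was lower (2.78%, against 1.08%). Across all genes, 95% differed by less than 0.53 and 99% by less than 0.90 between these arrays, a range that contains both array noise and the drug. TNFSF10 lay beyond the upper of these limits, and BCL2L11 and PMAIP1 between them. The next in size was BCL2L1 (-0.47), which lay inside both limits. CFLAR had -0.15 here by its brighter probe set, the one counted, and -0.72 by the second, which would be past 1.5-fold lower.

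**Figure D4:**
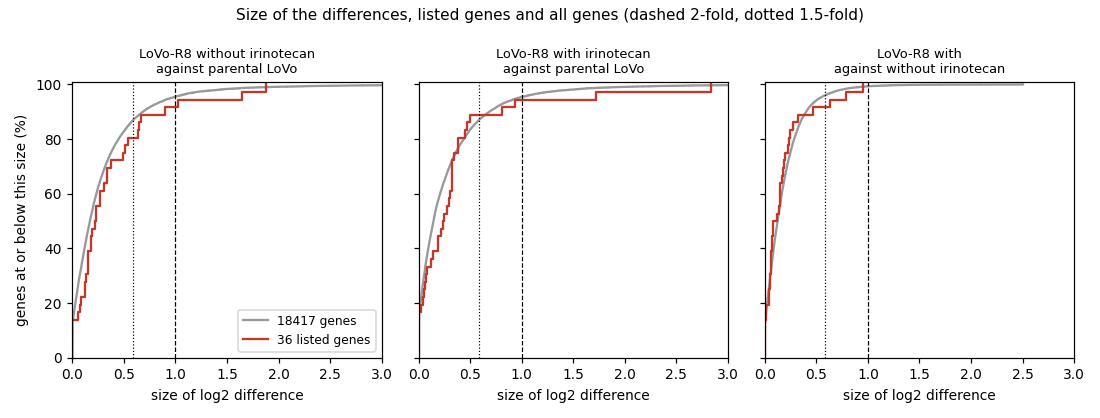
Share of genes (vertical axis, %) whose log2 difference is at most the size on the horizontal axis, for the 36 listed genes (red) and all 18417 genes (grey), in the 3 comparisons, with dashed lines at 2-fold and dotted lines at 1.5-fold. Median sizes of listed and all genes are 0.22 and 0.17 in LoVo-R8 without irinotecan against parental LoVo and 0.24 and 0.14 with it, and in the reverse order, 0.10 and 0.12, between the LoVo-R8 cultures.

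Equal values need care in these data. RMA, fitted here on 3 arrays, can give a probe set the same value on several of them, and 7 of the 36 listed genes (19.4%) had equal levels on at least 2 arrays, as had 26.1% of all genes. BCL2A1, BMF, CASP1 and DIABLO were equal on all 3. For such genes a difference of 0.00 does not show that the RNA was unchanged.

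A wider set of 6 lists on cell death, outside the 38 genes, gave 56 measured genes of 59 listed. Without irinotecan 4 were at least 2-fold higher than in parental LoVo (7.14%, against 1.64% of all genes) and 2 lower (3.57%, against 2.78%), with median 0.00. With irinotecan 3 were higher (5.36%, against 2.25%) and 2 lower (3.57%, against 2.3%), with median -0.03. The higher ones were IL18 (1.37 and 1.52) and IL1B (1.45 and 1.85), which encode the cytokines matured by caspase 1, CASP5 (1.18 and 0.25), a close paralog of CASP4, and TNFAIP3 (1.02 and 1.60), a brake on TNF receptor signalling. IL18, IL1B and CASP5 stood in the inflammasome and pyroptosis list, whose other 7 measured genes lay between 0.02 (NLRP3, an inflammasome sensor) and 0.24 (CARD8) without irinotecan, and between -0.43 (AIM2, a sensor of DNA) and 0.17 (CARD16) with it. The lower ones included TNFRSF10D (-1.39 and -0.96), a decoy receptor for TRAIL without a death domain, and MLKL (-1.30 and -0.998), the pore former that RIPK3 activates and which ended just short of 2-fold with irinotecan. RBCK1, a subunit of the linear ubiquitin ligase (-0.40 and -1.44), and BAG1, a co-chaperone that binds BCL2 (-0.93 and -1.28), were 2-fold lower with irinotecan.

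The receptors that carry the TRAIL signal differed from each other. TNFRSF10B, a p53-induced death receptor, had differences of 0.93 without irinotecan and 0.19 with it, and TNFRSF10A -0.44 and -0.50. FAS, the receptor of another death ligand, had 0.52 and 0.11. PMAIP1, TNFRSF10B and FAS thus had their highest level of the 3 in the culture without irinotecan. So had other listed genes, among them BCL2L1, APAF1, CASP9 and TNFRSF1A, and TNFRSF10B and FAS were picked with their values known. The share of all genes with this order was not counted, so nothing is drawn from it. Of the wider genes, RBCK1 alone differed by 2-fold between the LoVo-R8 cultures (-1.04), which is 1.79% of them, against 0.114% of all genes lower at that size.

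Markers of colon epithelium were read as a check of the cell type. Of 9 such markers, the levels ran from 6.40 to 13.27 in parental LoVo, from 6.13 to 12.73 in LoVo-R8 without irinotecan and from 6.13 to 12.77 with it, with CDH1 (-3.06 and -2.26) and LGALS4 (-2.27 and -2.01) past 2-fold lower. CDX2 (0.35 and 0.91) and CDX1 (0.25 and 0.17), transcription factors of the intestine, lay above parental LoVo, and the other 5 had differences between -0.55 and 0.00. The leukocyte marker PTPRC was at 4.12 on each array, CD3E had differences of 0.15 and 0.05 and CD14 0.21 and -0.01, and the 6 markers of fibroblasts and endothelium stayed between 5.09 and 7.66 on all arrays. CD68, a lysosomal protein of macrophages that other cells also make, was higher (1.47 and 1.86), and its part in the results above was not tested.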

How the data were processed

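Total RNA of 3 cultures (300 ng each) was hybridised to 1 array per condition. The authors deposited RMA log2 levels for 33297 probe sets, background corrected, quantile normalized and summarised per probe set. Affymetrix Expression Console 1.1 is listed in the submitters' processing notes, and the methods of the paper list R and Bioconductor. No detection filter was applied to the table.

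Differences were subtractions of log2 levels, counted at 2-fold and at 1.5-fold. No test was made for want of replicates, and precision is limited by the number of arrays. Probe sets were named by the platform annotation (19460 name 1 gene, 1754 several and 12083 none). Members, classes and lists were chosen with earlier results of these data known. Every measured member is named. All 3 levels are given for members at 1.5-fold in any comparison and for the brightest of each class, and wider genes are named at 2-fold from parental LoVo on either array. TNFRSF10A, TNFRSF10B, FAS, the chromosomal neighbours, the motifs and the markers printed were chosen after their values were seen. Gene order and promoters came from RefSeq. Levels were called equal within 1e-06.

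Python 3.11.15, numpy 2.4.6, pandas 2.3.3, statsmodels 0.14.6 and matplotlib 3.10.9 were used, and the counting was tested on simulated data. Alternatives were other fold limits, median centring, loess (span 0.3, 3 iterations), repeated quantile normalization, averaging the probe sets of each gene and filters on dim genes.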

Additional observations from a re-analysis of the deposited data

How the results depend on the processing

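The counts of listed genes past 2-fold changed with the limit and not with the normalization. At 1.5-fold, counted on the deposited levels only, 4 genes were lower than parental LoVo without irinotecan and 1 with it. Between the LoVo-R8 cultures 2 were higher and 1 lower with irinotecan. After loess correction, BAK1 and CYCS without irinotecan were at -0.572 and -0.564 from parental, inside 1.5-fold (0.585). After repeated quantile normalization they were at -0.501 and -0.496, and PMAIP1 was past 1.5-fold higher (0.632). At 3-fold, 0 genes were lower without irinotecan, since BCL2L11 did not reach that size, while TNFSF10 and BCL2L14 were past 3-fold on both arrays. Median centring, loess correction and repeated quantile normalization gave the same counts at 2-fold in every comparison. So did averaging the probe sets of each gene and filters at the 25th or 50th percentile of the array. Each median moved by at most 0.12, less than the median difference of 0.124 between the LoVo-R8 arrays. Averaging could change CFLAR alone, the only member with several single-gene probe sets. The filters kept a gene by the brighter of the arrays compared. TNFSF10, at 6.09 in parental LoVo where the array median was 6.94, thus passed the 50th percentile filter against parental only through LoVo-R8. Its place in the filtered counts was fixed by that rule. BCL2L11 is the member nearest to the limit, at -1.02 as deposited and -1.004 with repeated quantile normalization. With 1 array per condition no replicate can be left out, and levels below the first quartile of the array limit what can be seen of BCL2A1 and CASP1.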
